A study of Rattus norvegicus with 6 samples.

Results

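Overexpression of wild-type cyclin Y (CCNY-WT) was compared with expression of EGFP alone in cultured rat hippocampal neurons by RNA-seq. The comparison used 4 of the 6 libraries of the series, 2 labelled CCNY-WT and 2 labelled EGFP, chosen by those labels and not by any measured value. The remaining 2 libraries, labelled CCNY-shRNA, came from neurons in which cyclin Y was knocked down. All neurons were prepared from E18 Sprague-Dawley rat embryos, infected with lentivirus at day 5 or 6 in vitro and harvested at day 14, so the controls also carried a virus and made EGFP. The vectors were built on FUGW, a lentiviral backbone whose ubiquitin C promoter is not restricted to neurons. They carried either EGFP alone, CCNY-WT with EGFP, or the CCNY-shRNA with EGFP. The promoter of the shRNA is not given in the sources used here. Expression was given as FPKM, a fragment number scaled to the length of the transcript and to the depth of the library, for 17066 genes. Of these, 10188 reached 1 FPKM in no fewer than 2 of the 6 libraries and were tested, on the log2 scale after values under 1 were set to 1. The labels do not say whether the 2 libraries of a group came from separate cultures, so each p-value measures only the spread between these libraries, which may be technical.

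Cyclin Y is an atypical cyclin that is held at the plasma membrane by a lipid anchor. It binds and activates the cyclin-dependent kinases CDK14 and CDK16, which belong to the PCTAIRE/PFTAIRE group, and 14-3-3 proteins bind its phosphorylated form. In dividing cells the complex of cyclin Y and CDK14 phosphorylates the Wnt co-receptor LRP6. In hippocampal neurons, which no longer divide, cyclin Y is known as a postsynaptic protein that restrains the delivery of AMPA receptors to the synapse. The comparison asks which transcripts differ when neurons make more of it.

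The cultures were neuronal by their markers in all libraries: the 12 neuron markers examined were all tested, and their FPKM summed to 4740 and 4781 in EGFP and to 4749 in each CCNY-WT library. Astrocyte markers were also present, with 9 of 9 tested and sums of 978 to 1041 in EGFP and 1056 to 1081 in CCNY-WT. Of the 12 microglia markers only Cd68 was tested, the other 11 lay under 1 FPKM throughout, and the defining markers Aif1 and Cx3cr1 were listed at 0. Sox10 of the oligodendrocyte lineage and the endothelial genes Cldn5 and Cdh5 were also listed at 0 throughout. A listed 0 can be a failed estimate and does not show that a cell type was absent, since Rhoa and Rpl36, which nearly every cell uses, were at 0 in all 6 libraries too. In these bulk libraries, fewer cells of a type and less RNA per cell cannot be told apart. Between 9955 and 10002 genes reached an FPKM of 1 in a library. In the library of CCNY-WT replicate 1 a single gene outside the test, Bc1, held 15.1% of the FPKM sum. The sum of the other genes there, 547887, lay within the range of 543567 to 566287 seen in the other 5 libraries.

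Ccny itself rose. Its FPKM was 43.1 and 42.3 in the EGFP libraries and 108 and 109 in the CCNY-WT libraries, against 5.98 and 6.19 in the CCNY-shRNA libraries. The 3 pairs of values did not overlap, and the replicates of each pair lay close together. The gene was 2.55-fold higher in CCNY-WT than in EGFP, a log2 difference of 1.35 ± 0.0658 (SE, n = 2 and 2) with a 95% interval of 1.20 to 1.50, and it was the only gene past the threshold (limma, adjusted p = 4.61e-04). It ranked 2602 and 2624 by FPKM among all genes in the EGFP libraries and 1054 and 1057 in the CCNY-WT libraries. Reads from the insert and from the endogenous gene were counted under 1 symbol and cannot be told apart. By quantitative PCR the paper measured a far larger rise of CCNY mRNA with CCNY-WT, so the FPKM ratio is not the only estimate of the overexpression. An exact permutation test of 2 against 2 libraries cannot give a two-sided p below 0.333, so the adjusted p rests on the spread shared across genes and over all 6 libraries. Without EGFP replicate 2 it was 0.0518, without CCNY-WT replicate 1 it was 0.147 and without CCNY-WT replicate 2 it was 0.155, while the log2 difference stayed between 1.33 and 1.36.

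**Figure D1:**
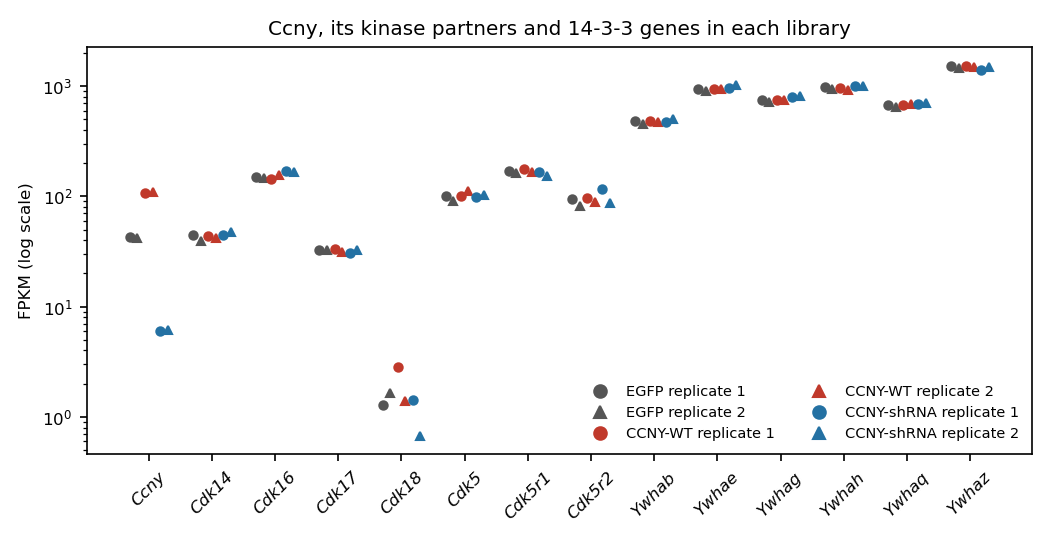
FPKM on a log axis of Ccny and the genes of its kinase partners, Cdk5 with its activators and 14-3-3 proteins, with 1 point per library for EGFP, CCNY-WT and CCNY-shRNA (2 libraries each). Ccny separated by condition, at 43.1 and 42.3 with EGFP against 108 and 109 with CCNY-WT, while the libraries of its partners lay close together or, for the low Cdk18, scattered.

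The kinases that cyclin Y activates did not follow it. Cdk14 gave FPKM values of 45 and 39.5 with EGFP against 43.6 and 41.9 with CCNY-WT, with a log2 difference of 0.02 and a 95% interval of -0.16 to 0.20. Cdk16 had 151 and 146 with EGFP against 143 and 156 with CCNY-WT, with a log2 difference of 0.00 and an interval of -0.13 to 0.14. In both kinases the CCNY-WT libraries overlapped the EGFP libraries, and a change of the size seen for Ccny lay outside their intervals. Cdk17, a close relative of Cdk16, stood at 33 and 32.7 against 33 and 31.5. Cdk18, the remaining PCTAIRE kinase, was low at 1.29 and 1.66 with EGFP against 2.83 and 1.39 with CCNY-WT, and its interval of -0.39 to 1.27 left its difference poorly determined.

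Cdk5, a neuronal kinase activated by p35 and p39 rather than by a cyclin, had 101 and 91.7 with EGFP against 100 and 112 with CCNY-WT (log2 difference 0.13, interval -0.04 to 0.31). Its activators Cdk5r1 (p35) and Cdk5r2 (p39) differed by 0.04 and 0.09 on the log2 scale, and their libraries overlapped. The 14-3-3 genes were among the most abundant transcripts of the group. Ywhaz stood at 1539 and 1461 with EGFP against 1520 and 1508 with CCNY-WT, and Ywhae at 934 and 900 against 948 and 952. The log2 differences of Ywhab, Ywhae, Ywhag, Ywhah, Ywhaq and Ywhaz all lay between -0.02 and 0.05. Of the 14 tested genes of cyclin Y and its partners, 12 had a 95% interval within ± 0.5, and only Ccny and Ywhae had CCNY-WT libraries that did not overlap EGFP. Across all tested genes, the libraries did not overlap for 39.5% in either direction, 20.3% higher and 19.2% lower in CCNY-WT.

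LRP6 signalling was represented by 31 tested genes, of which 10 were higher and 21 lower, with a median log2 difference of -0.03 against 0.00 over all tested genes. Lrp6, the co-receptor itself, had 7.22 and 7.3 with EGFP against 7.52 and 6.64 with CCNY-WT. Axin2, a commonly used target of the pathway, had 4.67 and 4.38 against 4.91 and 4.11, and Ctnnb1 (β-catenin) had 171 and 170 against 164 and 161. None of these 3 genes differed past an unadjusted p of 0.05. The smallest p-values of the group were those of 2 genes on the ligand side. Wnt4 had 31.2 and 29.2 with EGFP against 22.6 and 25 with CCNY-WT (log2 difference -0.35, SE 0.143), and Porcn, the acyltransferase that modifies Wnt ligands, had 71.2 and 75.6 against 66.5 and 66.1 (-0.15, SE 0.0618), each with an adjusted limma p of 0.729. Lower at an unadjusted p under 0.05 were thus 2 of the 31 genes, against 3% of all tested genes.

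Beyond Ccny the difference between the 2 conditions was small. Ccny was the 1 gene called higher of 10188 (0.00982%), and 0 genes were called lower (0%) by limma, where 306 were lower at an unadjusted p under 0.05. At that unadjusted threshold 390 genes were higher (3.83%) and 306 lower (3%), together 6.83%. Without CCNY-WT replicate 2 these counts were 197 and 135, and without EGFP replicate 2 the lower count was 164. The mean log2 difference was at least 0.3 for 468 genes higher (4.59%) and 383 lower (3.76%), and without CCNY-WT replicate 1 these were 794 and 634. The median absolute log2 difference between CCNY-WT and EGFP was 0.0891, and the median SE was 0.110. The 95% interval lay within ± 0.5 for 7226 genes (70.9%) and within ± 1 for 9738 genes (95.6%), while 450 genes had an interval that reached 1 or more in size.

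How small a difference could be seen depended on the level of the gene. For the 2128 genes with a mean FPKM under 5 the median absolute difference between the groups was 0.171 on the log2 scale, and the 2 EGFP libraries differed from each other by 0.228 and the 2 CCNY-WT libraries by 0.212. For the 1127 genes at 100 or more these medians were 0.0565, 0.0601 and 0.0516. The difference between the groups is taken between means of 2 libraries and the other values between single libraries. The former varies less, so the sizes are not directly comparable. The 95% interval had a median reach of ± 0.518 in the weakest class and ± 0.148 in the strongest. In the strongest class 99.3% of genes had an interval within ± 0.5, against 12.1% in the weakest, and 0 of the 1127 strongest genes differed by 0.5 or more.

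**Figure D2:**
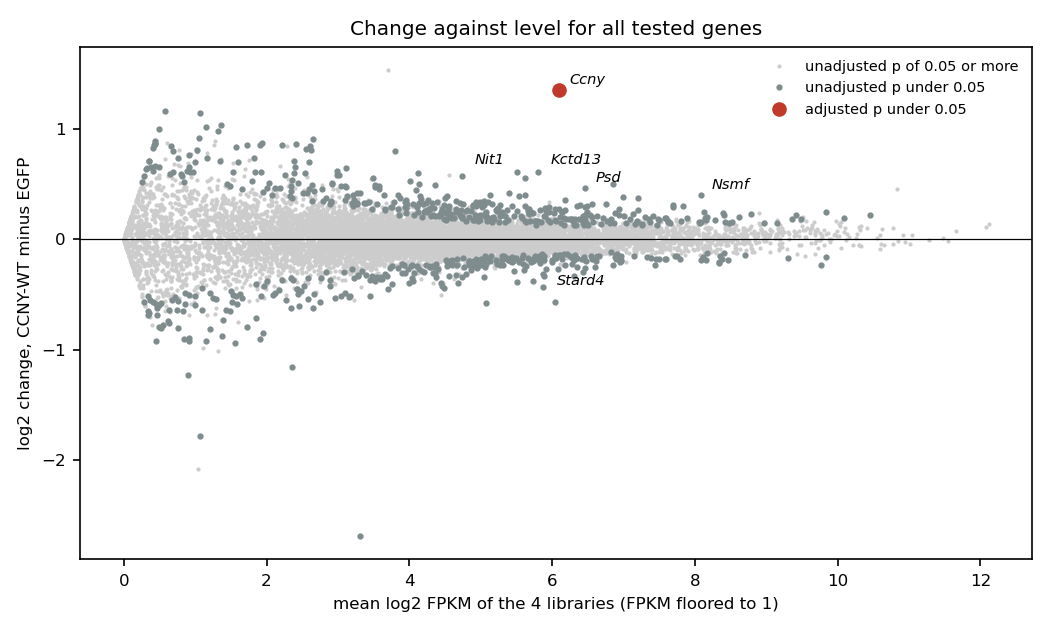
Log2 difference of CCNY-WT minus EGFP against the mean log2 FPKM of the 4 libraries for the 10188 tested genes, with 1 point per gene and colours for the unadjusted and adjusted thresholds of 0.05. Differences narrow as the level increases, and Ccny, at 1.35, stands apart as the only gene past the adjusted threshold.

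The genes next to the threshold were higher in CCNY-WT. Kctd13, a substrate adaptor of the Cul3 ubiquitin ligase that acts on RhoA, gave FPKM values of 46.8 and 44.2 with EGFP against 66.8 and 71.6 with CCNY-WT. Nit1, an amidase that clears a side product of glutathione metabolism, had 36.4 and 37.1 with EGFP against 58.8 and 53.4 with CCNY-WT. For both genes each CCNY-WT library lay above each EGFP library, by more than the replicates differed. The log2 difference was 0.60 ± 0.0646 for Kctd13 and 0.61 ± 0.0664 for Nit1 (SE), 1.52-fold in each, and both missed the threshold with an adjusted limma p of 0.0642. They passed it, with an adjusted p of 0.0359, either when 1 was added to each FPKM in place of the floor or when the test was limited to genes with a mean FPKM of at least 5. In CCNY-shRNA, which was read against the same EGFP libraries, Kctd13 stood at 63.2 and 66.2 and Nit1 at 52.6 and 53.6.

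Psd, Ddn and Nsmf, genes of synaptic signalling, came next, at an adjusted p of 0.0964 each. Psd, an exchange factor for the endosomal GTPase ARF6, had 73.4 and 76.8 with EGFP against 103 and 104 with CCNY-WT (log2 difference 0.46, SE 0.0585). Ddn (dendrin), a postsynaptic protein whose mRNA is carried into dendrites, had 112 and 111 against 147 and 144 (0.39, SE 0.0488). Nsmf (Jacob), which links NMDA receptors at the synapse to the nucleus, had 239 and 236 against 311 and 315 (0.40, SE 0.0506). In all 3 the pairs did not overlap.

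Further down the same order stood Fam219b, with 42.8 and 39 with EGFP against 61.7 and 57.9 with CCNY-WT, and Wdr6, a WD-repeat protein, with 131 and 128 against 171 and 165. Rab31, a GTPase of endosomal traffic, had 36.7 and 36.3 against 48.8 and 48.5. Slc25a22, a mitochondrial glutamate carrier, had 102 and 94 against 131 and 145, and Guk1, the guanylate kinase that makes GDP from GMP, had 85.2 and 83.6 against 107 and 103. Their log2 differences ran from 0.31 for Guk1 to 0.55 for Fam219b, with adjusted p-values between 0.134 and 0.272. Among the 10 leading genes named here, Kctd13 to Guk1, only Wdr6 had CCNY-shRNA libraries below EGFP, at 108 and 103, while the other 9 had CCNY-shRNA libraries above both EGFP libraries. The CCNY-shRNA values share the EGFP libraries with the comparison and are not a second measurement of it.

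Among the leading genes lower in CCNY-WT, Stard4 had the smallest p. The gene, whose protein carries cholesterol between membranes, had 67.5 and 68.1 with EGFP against 50.7 and 50 with CCNY-WT, a log2 difference of -0.43 ± 0.0608 (SE) with an adjusted limma p of 0.134. Hist1h2bh, a histone H2B gene, had 67.8 and 65.5 against 52.8 and 53.2 (-0.33, adjusted p 0.272). Clstn2 (calsyntenin 2), a postsynaptic adhesion protein, had 58.7 and 62.2 against 46.9 and 46 (-0.38, adjusted p 0.326). The EGFP and CCNY-WT libraries of these 3 genes were well apart. With CCNY-shRNA, read against the same EGFP libraries, Stard4 stood at 54.4 and 50.4 and Clstn2 at 44.6 and 40.9. Both genes were thus below EGFP there too, while Hist1h2bh, at 71.8 and 69.8, was above it.

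The next lower genes had adjusted p-values from 0.418 to 0.608. Tprkb, a subunit of the complex that makes the tRNA modification t6A, had 30.4 and 28.3 with EGFP against 21.5 and 23.2 with CCNY-WT. Pnpla3, a lipid-droplet protein, had 26.5 and 25.5 against 20.1 and 18.3, and Ebp, a sterol isomerase, had 55.9 and 48.9 against 42.8 and 37.5. Yipf1, Slc2a6 and Tmem181, which encode membrane proteins, were lower with log2 differences between -0.28 and -0.26. Fubp1, a single-stranded DNA-binding regulator of Myc, had 44.6 and 38.1 against 29.4 and 25.9 and the largest difference of the 10 lower genes, -0.58, with an SE of 0.135. Tprkb, Pnpla3, Ebp, Yipf1, Slc2a6, Tmem181 and Fubp1 also had lower means with CCNY-shRNA than in the same EGFP libraries. The log2 differences there ran from -0.38 for Pnpla3 to -0.10 for Slc2a6. Histone and other gene families share near-identical sequence, so the value of Hist1h2bh may include reads of its copies.

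**Figure D3:**
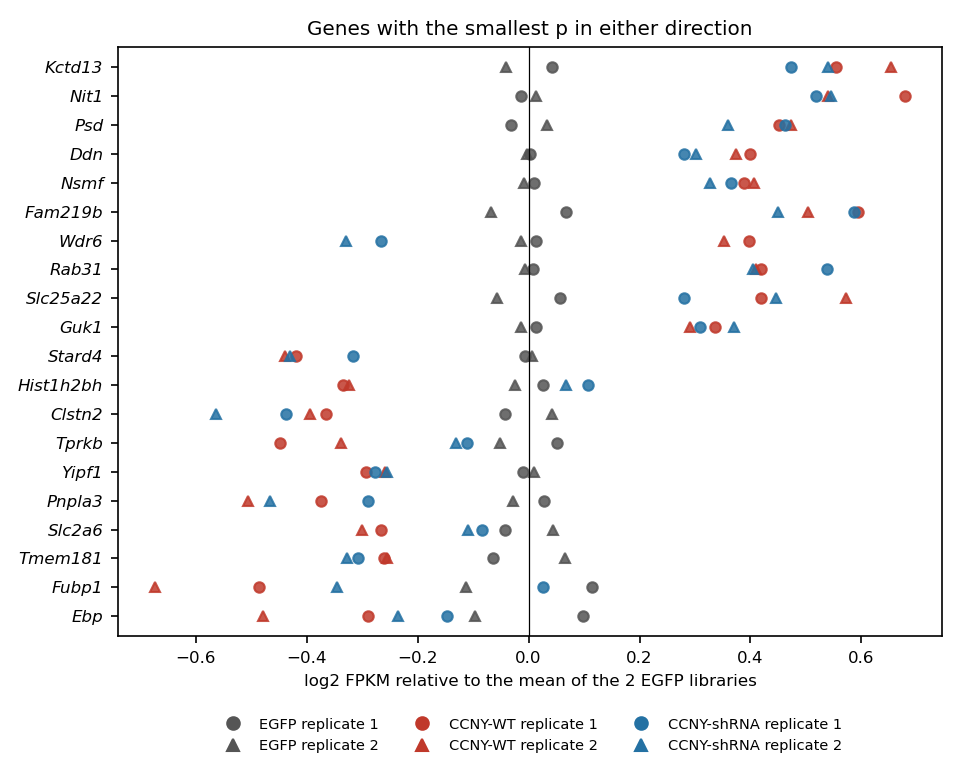
Log2 FPKM of each library minus the mean of the 2 EGFP libraries for the 10 higher and 10 lower genes with the smallest p-values after Ccny (libraries not overlapping, mean FPKM of at least 5), with 1 point per library. The 2 CCNY-WT points lie on 1 side of both EGFP points by construction, at mean differences of 0.31 to 0.61 for the higher genes and -0.58 to -0.26 for the lower.

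Cholesterol synthesis genes were lower in CCNY-WT as a group, each by a small amount. Cells make cholesterol from acetyl-CoA through the mevalonate pathway, and the genes of its enzymes are commonly switched together by the transcription factor SREBP-2. This list of sterol synthesis and uptake genes entered after earlier results of these data had shown it, so its direction here is a description. Among the 25 listed genes that the data held, 24 were tested, and all 24 had a lower mean log2 FPKM in CCNY-WT, with a median log2 difference of -0.18 against 0.00 over all tested genes. The CCNY-WT libraries lay below both EGFP libraries for 21 of the 24 (19.2% of all tested genes), and 14 were lower at an unadjusted p under 0.05 (3% of all tested genes). That count was 5 without EGFP replicate 2, 5 without CCNY-WT replicate 2 and 5 without a trend in the test, while 23 or 24 genes stayed lower. None passed the adjusted threshold, the smallest adjusted limma p being the 0.134 of Stard4, and 22 of the 24 had a 95% interval within ± 0.5. The median against EGFP was -0.13 in CCNY-WT replicate 1 and -0.20 in replicate 2.

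Along the pathway, Hmgcs1, which makes HMG-CoA, gave FPKM values of 946 and 986 with EGFP against 883 and 849 with CCNY-WT. Its log2 difference was -0.16 with an SE of 0.0649. Sqle, which forms squalene epoxide, had 330 and 357 against 318 and 299. For both enzymes each CCNY-WT library was below each EGFP library and the gap was small beside the level.

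Later enzymes lay in the same direction. Cyp51, the lanosterol demethylase, had 335 and 362 with EGFP against 315 and 287 with CCNY-WT. Msmo1, which removes methyl groups from the sterol ring, had 345 and 353 against 299 and 306, a log2 difference of -0.21 with an SE of 0.0512. Nsdhl, which acts in the same demethylation, had 233 and 237 against 209 and 205. The replicates of Msmo1 and Nsdhl lay close together, and their pairs were clearly apart. Dhcr7, which catalyses a last step of cholesterol synthesis, had 123 and 127 against 110 and 103 (-0.23, SE 0.0558).

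Regulators of the pathway had lower means too. Insig1, a target of SREBP that holds SCAP in the endoplasmic reticulum, had 300 and 308 with EGFP against 275 and 258 with CCNY-WT. Srebf2, which encodes SREBP-2, had 121 and 131 against 122 and 121, and Scap had 42.5 and 44.7 against 42.3 and 41.7. The unadjusted p of Srebf2 and Scap did not reach 0.05, and the libraries of Srebf2 overlapped. Apart from Stard4 and Ebp, the genes of this list named here were chosen after their values were seen. In CCNY-shRNA, which shares the EGFP libraries, 20 of the 24 genes were lower than EGFP, with a median of -0.15. Insig1 stood at 220 and 201 there.

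**Figure D4:**
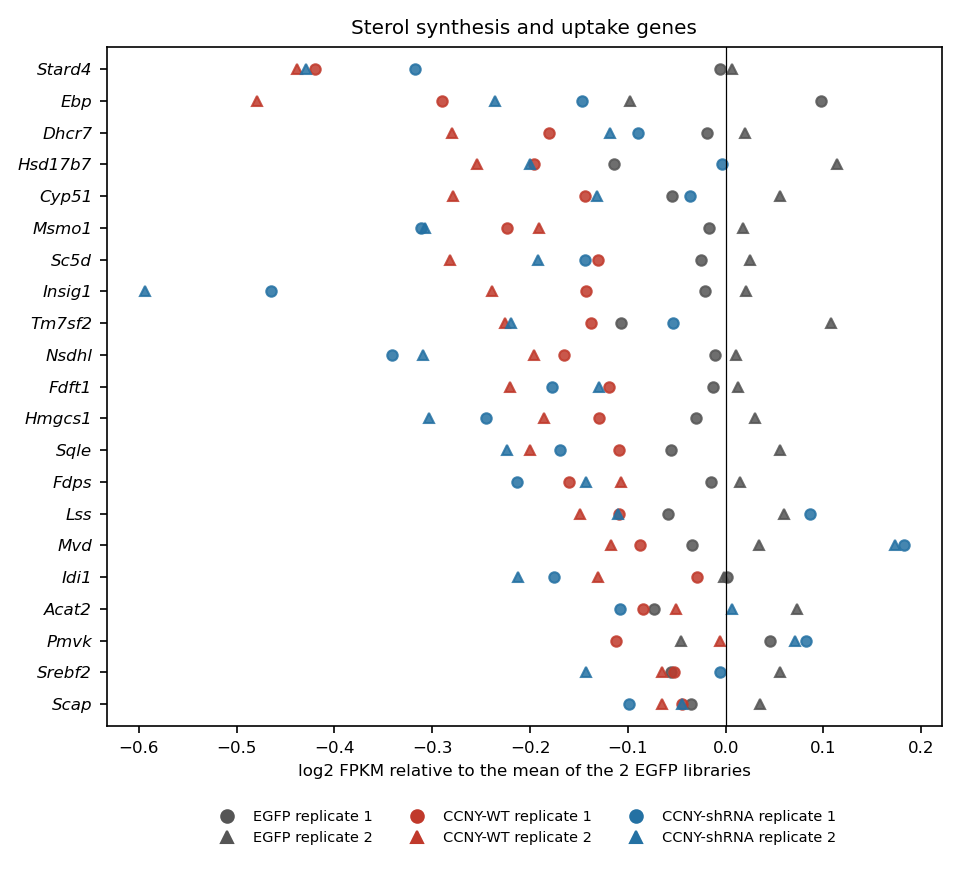
Log2 FPKM of each library minus the mean of the 2 EGFP libraries for 21 of the 24 tested sterol synthesis and uptake genes, with 1 point per library. The CCNY-WT points lie left of 0 for every plotted gene on average, while in CCNY-shRNA the means of Mvd and Pmvk lie right of it.

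Promoters are shown for 3 of these genes, because SREBP commonly acts beside NF-Y, a factor that binds the letters CCAAT. They are the 3 genes of the list with the smallest p for which both a promoter with CCAAT and a sequence entry were found. Of the 24 tested genes 17 matched an entry among the RefSeq promoters of the GRCr8 assembly, a later build than the rn4 used for the reads. CCAAT, searched on both strands in the 250 bases before the start, occurred in 13 of the 17 (76.5%) and in 34.0% of all 33469 promoters of that length. The 17 were counted by gene, a match in any entry of the gene being enough, and the 33469 by entry. TCACNCCAC, one form of the sterol response element, occurred in 0 of the 17 (0.974% of all promoters), and CACGTG, an E-box that SREBP can also bind, occurred in 3 of the 17 (17.6%, against 5.59%). These matches describe letters and show neither a bound site nor a cause. Capitals mark CCAAT, or ATTGG where it lies on the other strand.
Ebp, chrX:16971212-16971461, plus strand: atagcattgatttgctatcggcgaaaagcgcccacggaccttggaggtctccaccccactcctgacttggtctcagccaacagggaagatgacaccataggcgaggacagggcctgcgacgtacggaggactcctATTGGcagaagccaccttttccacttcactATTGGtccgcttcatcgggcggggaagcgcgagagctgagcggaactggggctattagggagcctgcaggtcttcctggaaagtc
Msmo1, chr16:29746863-29747112, plus strand: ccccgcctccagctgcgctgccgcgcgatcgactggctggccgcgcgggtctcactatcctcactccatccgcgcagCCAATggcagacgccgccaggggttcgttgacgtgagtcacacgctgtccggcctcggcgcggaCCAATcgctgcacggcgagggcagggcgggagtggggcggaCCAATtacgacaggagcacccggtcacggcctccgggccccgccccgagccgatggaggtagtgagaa
Nsdhl, chrX:155817110-155817359, plus strand: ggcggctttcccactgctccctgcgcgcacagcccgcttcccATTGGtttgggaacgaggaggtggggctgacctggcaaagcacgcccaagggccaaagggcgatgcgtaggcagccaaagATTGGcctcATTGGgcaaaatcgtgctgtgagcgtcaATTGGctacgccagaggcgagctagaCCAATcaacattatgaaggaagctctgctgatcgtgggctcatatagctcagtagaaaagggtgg
Ebp held 2 matches, Msmo1 held 3 and Nsdhl held 5, all between 65 and 208 bases before the start.

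Glutamate receptors other than the AMPA type were lower on the whole. Of 17 tested NMDA, kainate and metabotropic receptor genes 3 were higher and 14 lower, with a median log2 difference of -0.13 against 0.00 over all tested genes. The libraries did not overlap for 10 lower and 2 higher (19.2% and 20.3% of all tested genes), and 4 were lower at an unadjusted p under 0.05 (3% of all tested genes), with 0 past the adjusted threshold. Grik2, a kainate receptor subunit, gave FPKM values of 45.7 and 46.6 with EGFP against 41.5 and 40.8 with CCNY-WT (log2 difference -0.17, SE 0.0591, adjusted limma p 0.725). Grik4, its high-affinity partner, had 33.4 and 31.8 against 29.2 and 28.4, and Grm4, a presynaptic metabotropic receptor, had 7.8 and 7.94 against 6.54 and 6.25. Grin3b, a minor NMDA receptor subunit near the detection limit, had 1.68 and 2.13 against 0.918 and 1.18. The core NMDA receptor subunit Grin1 did not share the direction, with 203 and 205 against 209 and 207, while Grin2a had 21.5 and 21 against 20.2 and 18.6 and Grin2b overlapped. Grik4, Grm4 and the other receptors beyond Grik2 and Grin3b were named after their values were seen. Against the same EGFP libraries, 16 of the 17 genes were lower in CCNY-shRNA too, with a median of -0.22.

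For AMPA receptors, whose delivery cyclin Y is known to restrain, 17 genes of subunits and auxiliary proteins were tested, 7 higher and 10 lower, with a median of -0.04. The subunit Gria2 gave FPKM values of 255 and 272 with EGFP against 257 and 235 with CCNY-WT, Gria3 had 25.9 and 28.6 against 27.2 and 24.2, and Gria4 had 52.2 and 57.2 against 56.5 and 53.3. The libraries of these 3 subunits overlapped. Gria1 was not among the 17 genes, which were those found of 20 listed, so the comparison does not cover it. The 2 of 17 genes at an unadjusted p under 0.05, against 6.83% of all tested genes, both encode cornichons, auxiliary proteins that slow the closing of AMPA receptors. Cnih3 had 13.4 and 11.7 with EGFP against 16 and 16.9 with CCNY-WT (log2 difference 0.40, SE 0.119), and Cnih2 had 266 and 269 against 307 and 309 (0.20, SE 0.0857). Their adjusted limma p-values were 0.725 and 0.729. With CCNY-shRNA, Cnih2 stood at 295 and 357, above both EGFP libraries as well, and Cnih3 at 12.1 and 14, overlapping EGFP. Pick1, Grip1 and Nsf, which handle AMPA receptors inside the cell, had log2 differences between -0.05 and 0.00, and their libraries overlapped.

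Scaffold genes of the postsynaptic density stayed close to EGFP, with 11 of 27 higher, 16 lower and a median of -0.03. At an unadjusted p under 0.05, 3 were higher and 1 lower (3.83% and 3% of all tested genes). Shank3, a scaffold that joins receptors to actin, gave FPKM values of 46.3 and 46.3 with EGFP against 56 and 54.8 with CCNY-WT (log2 difference 0.26, SE 0.0569, adjusted limma p 0.507). Dlgap3, another scaffold, was also higher at an unadjusted p under 0.05, with 83 and 82.1 against 92.2 and 94.8, and Kalrn, an exchange factor for Rac1, was the 1 lower, with 31.3 and 30.5 against 27.4 and 25.7. The abundant members lay near the EGFP level. Dlg4 (PSD-95) had 317 and 302 against 319 and 320, and Camk2a, the kinase of synaptic potentiation, had 376 and 405 against 379 and 361. Shank3 and Dlgap3 stood at 55.4 and 53.3 and at 102 and 101 with CCNY-shRNA.

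Inhibitory synapse genes numbered 19, with 8 higher, 11 lower and a median of -0.03. At an unadjusted p under 0.05, 2 were lower (3% of all tested genes). One of them was Gabra2, a subunit of the GABA-A receptor, which had 302 and 303 with EGFP against 282 and 272 with CCNY-WT. On the presynaptic side 9 of 29 vesicle and release genes were higher and 20 lower, with a median of -0.05. Vamp1, a SNARE of the vesicle, was higher with 54.6 and 53.4 against 63.2 and 67.9 (log2 difference 0.28, adjusted limma p 0.645). Sv2c, a vesicle glycoprotein, had 11.8 and 11.6 against 10.7 and 7, with CCNY-WT replicate 1 near EGFP and replicate 2 well below.

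Endocytosis and receptor recycling genes were balanced, 17 higher and 16 lower of 33. Ap2a2, a subunit of the clathrin adaptor AP-2, had 183 and 175 with EGFP against 197 and 211 with CCNY-WT, and Rab5a, the GTPase of early endosomes, had 75.9 and 70.6 against 84.3 and 96.6. Both were among the 3 of 33 higher at an unadjusted p under 0.05 (3.83% of all tested genes), with log2 differences of 0.19 and 0.30. At that p 1 gene of the list was lower (3% of all tested genes). Of 41 actin regulators 29 were higher and 12 lower, with a median of 0.04, and 4 were higher and 1 lower at that p. Wasl (N-WASP), which activates the Arp2/3 complex, had 16.5 and 13.1 against 22.1 and 18, and Arpc4, a subunit of that complex, had 153 and 155 against 167 and 185. The adjusted limma p of these 4 genes was 0.725. With CCNY-shRNA, Ap2a2 stood at 201 and 204, Rab5a at 100 and 84.4, Wasl at 18.5 and 20.1 and Arpc4 at 176 and 193. Against the same EGFP libraries, the actin regulators had a median of 0.09 in CCNY-shRNA, with 14 of the 41 lower.

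Voltage-gated sodium and calcium channel genes were lower in 20 of 23, with a median log2 difference of -0.10. The libraries did not overlap for 13 lower and 1 higher (19.2% and 20.3% of all tested genes). At an unadjusted p under 0.05 only Cacna2d3, an auxiliary calcium channel subunit, was lower (3% of all tested genes), with 66.7 and 72 with EGFP against 62.4 and 63.4 with CCNY-WT. With CCNY-shRNA, 19 of the 23 genes were lower than the same EGFP libraries, with a median of -0.11. Potassium channels showed no common direction, with 31 of 65 higher and 34 lower, of which 2 were higher and 4 lower at an unadjusted p under 0.05 (3.83% and 3% of all tested genes). Kcnmb4, a β subunit of BK channels, had 27.5 and 26 with EGFP, 33.9 and 31.8 with CCNY-WT and 23.3 and 21.4 with CCNY-shRNA. Kcnh2, the ERG channel, had 7.87 and 8.75 with EGFP against 10.8 and 10.5 with CCNY-WT. On the lower side Kcnv1, a modifying subunit, had 19 and 21 against 16.7 and 15.9, and Kcnj9, a subunit of G protein-gated channels, had 25.7 and 26.3 against 23.8 and 21.2, both chosen after their values were seen.

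Housekeeping genes of protein and energy metabolism were slightly higher. Cytosolic ribosomal protein genes were higher in 64 of 76 with a median of 0.07, respiratory chain and ATP synthase genes in 65 of 82 with a median of 0.05, and proteasome genes in 28 of 36 with a median of 0.07. The libraries did not overlap and were higher for 41 of the 76 ribosomal genes, 30 of the 82 respiratory genes and 16 of the 36 proteasome genes (20.3% of all tested genes). At an unadjusted p under 0.05, 3, 3 and 5 of them were higher (3.83% of all tested genes), and none passed the adjusted threshold (smallest adjusted limma p 0.717). Rpl27a gave FPKM values of 265 and 248 with EGFP against 324 and 285 with CCNY-WT, Rplp2 had 667 and 676 against 758 and 766, and Atp5h, a subunit of ATP synthase, had 643 and 630 against 727 and 751. Psmb1, a subunit of the proteasome core, had 257 and 254 against 279 and 287. Ndufs6, an accessory subunit of complex I, was the respiratory gene that was lower at that p, with 85.3 and 92.9 against 68.3 and 81.7. The medians were larger in CCNY-WT replicate 2 (0.10 ribosomal, 0.09 respiratory, 0.10 proteasome) than in replicate 1 (0.03, 0.02 and 0.06). Against the same EGFP libraries, the CCNY-shRNA medians were higher too, at 0.10, 0.09 and 0.22. There 9 of the 76, 13 of the 82 and 3 of the 36 genes were lower. Many ribosomal protein genes have near-identical processed copies, so their single values are uncertain.

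The length of the gene moved with these directions. By the span of each gene on the GRCr8 assembly, known for 10064 of the 10188 tested genes (98.8%), the shortest of 4 equal classes (up to 10.4 kb, 2516 genes) had a median log2 difference of 0.03 with 58.1% higher, and the longest class (61.7 kb or more) had -0.03 with 40.2% higher. The median of the longest class was -0.01 in CCNY-WT replicate 1 and -0.05 in replicate 2, and that of the shortest was 0.01 and 0.04. The 2 EGFP libraries differed by a median of 0.00 in both classes. CCNY-shRNA, read against the same EGFP libraries, had the same order, with a median of 0.04 in the shortest class and -0.06 in the longest. The ribosomal protein genes had a median span of 3.13 kb, the sodium and calcium channels of 135 kb and the glutamate receptors of 395 kb. The sterol genes had a median span of 17.6 kb, in a class whose median difference was 0.02. Not every short list was higher. The immediate early genes, with a median span of 4.33 kb, had a median log2 difference of 0.00. The neuropeptide and granin genes, with 8.33 kb, had -0.02. The part of gene span in the results of these lists was not tested.

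**Figure D5:**
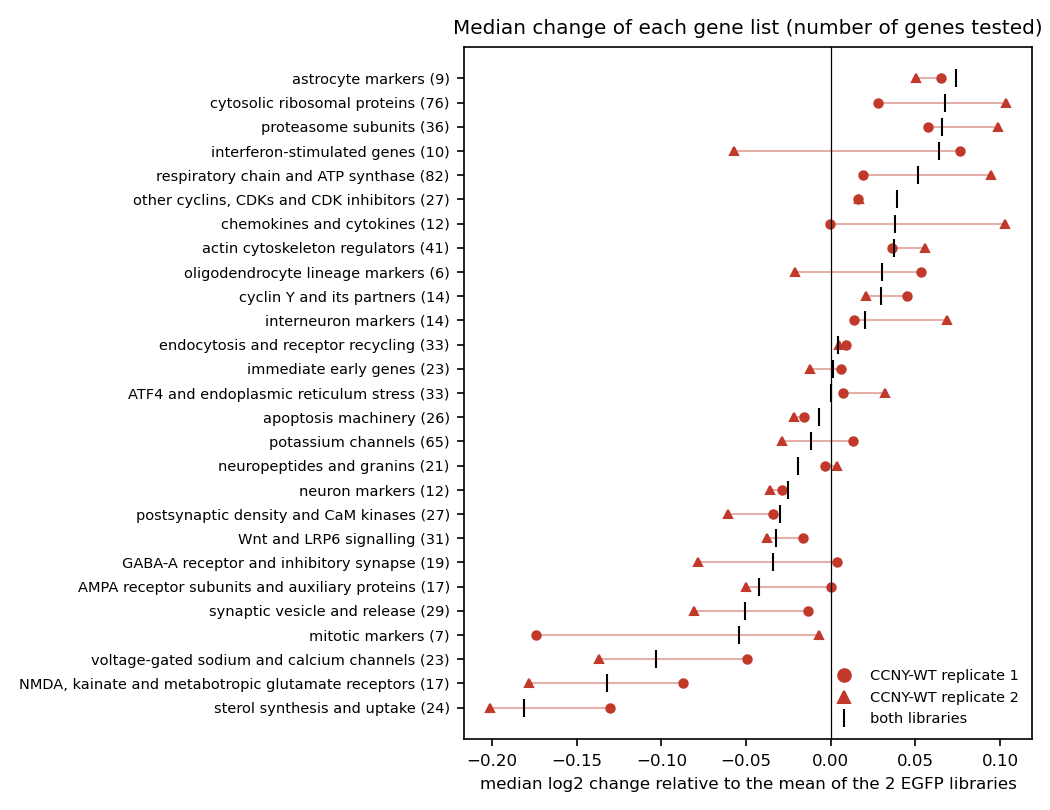
Median log2 difference from the mean of the EGFP libraries for each gene list with more than 3 tested genes, with points for the 2 CCNY-WT libraries and a bar for the mean of both taken gene by gene. Sterol genes (-0.18), NMDA, kainate and metabotropic receptors (-0.13) and sodium and calcium channels (-0.10) are lowest, and ribosomal, proteasome and respiratory genes lie above 0 in both libraries.

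Activity-regulated and stress genes gave no common direction. Of 23 immediate early genes 12 were higher and 11 lower, with 1 higher and 3 lower at an unadjusted p under 0.05 (3.83% and 3% of all tested genes). Egr1, a transcription factor induced by activity, gave FPKM values of 24.8 and 26.3 with EGFP against 21.2 and 17.2 with CCNY-WT, while Fosb, of the AP-1 family, had 3.55 and 3.3 against 4.53 and 5.26. Nr4a1 and Ptgs2 were the other 2 lower, at 14.2 and 14.7 against 12.3 and 10.8 and at 22.4 and 20.6 against 19.4 and 16.8. The common activity markers Fos and Arc had 22.9 and 22.5 against 24.7 and 24.1 and 29 and 28.5 against 28.3 and 24.9, and neither reached that p. Of 33 genes of ATF4 and endoplasmic reticulum stress 17 were higher and 16 lower. Cebpg, a partner of ATF4, had 19.7 and 20.5 with EGFP against 27.2 and 25.6 with CCNY-WT (log2 difference 0.39, SE 0.0745, adjusted limma p 0.359), and Nupr1, a stress-induced cofactor, had 0.778 and 0.355 against 2.66 and 1.25. In CCNY-shRNA they stood at 28.4 and 28.1 and at 2.85 and 3.69.

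Cell cycle and cell death genes were near EGFP. Apart from cyclin Y and its partners, 27 cyclins, cyclin-dependent kinases and their inhibitors were tested, 15 higher and 12 lower. At an unadjusted p under 0.05 stood 2 of the 27, near the 6.83% of all tested genes. Both were lower, Ccng2, a cyclin linked to cell cycle arrest, with 18.5 and 17.2 with EGFP against 15.2 and 15.2 with CCNY-WT, and Ccna1, low throughout, with 1.63 and 1.89 against 1.4 and 0.7. Only 7 of the 14 mitotic markers measured were tested, and Mcm2 and Rrm2, of DNA replication, stood between 1.11 and 2.28 FPKM in these 4 libraries. Of 26 apoptosis genes 12 were higher and 14 lower. Pmaip1 (Noxa), which promotes death by binding Mcl1, had 13.3 and 8.45 with EGFP against 19.6 and 17.3 with CCNY-WT (log2 difference 0.80, SE 0.194, adjusted limma p 0.617), with 16.4 and 17.1 with CCNY-shRNA. Its log2 difference was 0.47 without EGFP replicate 2. Cycs (cytochrome c) had 358 and 333 against 371 and 390.

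Secreted and immune genes were mostly weak. Penk, the enkephalin precursor, gave FPKM values of 18 and 18.9 with EGFP against 22.8 and 22 with CCNY-WT, and Crh, the corticotropin-releasing hormone, had 1.33 and 1.53 against 2.14 and 2.15, with 0.815 and 0.722 with CCNY-shRNA. These were the 2 of 21 neuropeptide and granin genes at an unadjusted p under 0.05 (6.83% of all tested genes), both higher, while the list as a whole had 9 higher and 12 lower. Only 12 of the 30 chemokines and cytokines measured were tested. Ccl7 had 1.37 and 1.75 with EGFP against 2.48 and 2.93 with CCNY-WT, and Cxcl12 had 14.4 and 12.9 against 11.2 and 10. Of 10 tested interferon-stimulated genes, Stat2 had 18 and 17.3 against 15.1 and 14.8, and Mx2 had 0.985 and 0.903 against 1.33 and 1.66. The adjusted limma p of Penk, Cxcl12, Stat2 and Mx2 was 0.725, and that of Ccl7 was 0.656.

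Differences of at least 1 on the log2 scale were found for 12 genes, 6 in each direction. Apart from Ccny and Ly96, each of them had a group mean FPKM under 5 or libraries that overlapped. Sdhaf3, an assembly factor of succinate dehydrogenase, gave FPKM values of 3.52 and 4.26 with EGFP against 0.907 and 1.27 with CCNY-WT, with a log2 difference of -1.78 ± 0.265 (SE) and an adjusted limma p of 0.168. P4ha3, a prolyl hydroxylase of collagen, had 1.48 and 1.36 against 2.84 and 3.42 (1.14, adjusted p 0.272). Both pairs were apart, at levels near the floor of 1. Ly96, a co-receptor of TLR4, had 38.2 and 16.6 with EGFP against 15.5 and 0 with CCNY-WT, and Pemt had 0 and 17.8 against 0 and 0, so the replicates of Ly96 and Pemt were far apart within a group. Mgp, a matrix protein counted here with vascular and meningeal genes, had 4.07 and 5.11 with EGFP against 8.15 and 8.21 with CCNY-WT (0.84, adjusted p 0.614). Its CCNY-shRNA libraries stood at 14.3 and 21.5. Sdhaf3, P4ha3, Ly96 and Pemt were chosen after their values were seen.

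CCNY-WT was also compared directly with CCNY-shRNA. The EGFP values do not enter that difference, but its SE and p draw on the spread within all 3 groups, EGFP included. In that comparison 20 genes were higher in CCNY-WT (0.196%) and 2 lower (0.0196%) by limma at an adjusted p under 0.05. Of these 22 genes 18 also passed the threshold in CCNY-shRNA against EGFP, which shares the CCNY-shRNA libraries and where 17 genes of all tested were higher (0.167%) and 59 lower (0.579%), and 5 differed between CCNY-WT and EGFP at an unadjusted p under 0.05. Those 5 were Ccny, Wdr6, Sdhaf3, Adora1 and Hist1h2bh. Ccny had a log2 difference of 4.16 between CCNY-WT and CCNY-shRNA (adjusted p 7.41e-08).

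In all 5 genes the EGFP libraries lay between the CCNY-WT and the CCNY-shRNA libraries, an order that picking genes by both differences favours. Of the 5 only Ccny passed the adjusted threshold between CCNY-shRNA and EGFP, where the adjusted limma p was 0.0543 for Wdr6, 0.0738 for Adora1, 0.433 for Hist1h2bh and 0.348 for Sdhaf3. Wdr6 gave FPKM values of 171 and 165 in CCNY-WT, 131 and 128 in EGFP and 108 and 103 with CCNY-shRNA, and it rose by 0.67 from CCNY-shRNA to CCNY-WT (SE 0.0523, adjusted limma p 0.00536). Adora1, the adenosine A1 receptor that dampens transmitter release, had 89 and 92.9, 78.6 and 82.6, and 65.7 and 67.3 in the same order (0.45, adjusted p 0.033). Hist1h2bh was lower in CCNY-WT than in CCNY-shRNA, at 52.8 and 53.2 against 71.8 and 69.8 (-0.42, adjusted p 0.0405). Sdhaf3 was lower too, at 0.907 and 1.27 against 4.32 and 7.03 (-2.29, adjusted p 0.0243). None of Wdr6, Adora1, Hist1h2bh and Sdhaf3 passed the adjusted threshold against EGFP. The remaining 17 called genes, such as Azin1 with 121 and 122 in CCNY-WT, 119 and 117 in EGFP and 72.4 and 75.2 with CCNY-shRNA, had log2 differences between -0.13 and 0.07 from EGFP in CCNY-WT.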

How the data were processed

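RNA-seq of 150-bp paired-end reads was made from 6 libraries, 2 each for EGFP, CCNY-WT and CCNY-shRNA, grouped by their titles. The authors aligned the reads to rn4 with TopHat2 (2.0) and Bowtie2 (2.1.0) and computed FPKM per gene with Cufflinks (2.2.1), and SAMtools (0.1.19) and R (3.1.0) are also named in the submitters' processing notes. The deposited table holds 1 FPKM value per gene and library. The annotation, the strand setting of the counting and any scaling between libraries are not given in the sources used here, so overlapping and antisense genes may share reads. Of 17066 symbols 14569 were current RefSeq symbols, 2114 older synonyms and 383 were not matched.

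After the study's own treatment, values under 1 were set to 1 and the log2 was taken. Genes that reached 1 FPKM in no fewer than 2 libraries were tested with limma (3.58.1, R 4.3.3) with a trend, over all 6 libraries, with the Benjamini-Hochberg adjustment over 10188 genes and a threshold of 0.05. Because values under 1 were floored, differences of weak genes are understated. All p-values are two-sided. Differences, SEs and intervals are on this log2 scale, and the unadjusted p is from the same test. The model was tested on simulated data. Other steps used Python (3.11.15) with pandas (2.3.3), numpy (2.4.6) and, for plots, matplotlib (3.10.9).

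Depth is unknown, since the table holds no counts. From the steps between FPKM values of weak genes it was estimated, relative to EGFP replicate 1, as 1.09 for EGFP replicate 2 and 1.32 and 0.933 for CCNY-WT replicates 1 and 2, and no count test was run. The 17 alternatives were pseudocounts of 1 and 0.1, 2 other filters, 3 other scalings, no trend, a robust spread, a fit of the 4 libraries alone, a replicate block and leaving out each library.

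The gene lists and the genes compared were chosen with earlier results of these data known. Named genes were Ccny and its listed partners, the 10 genes higher and the 10 lower with the smallest p among those with a mean FPKM of at least 5 whose libraries did not overlap, the 2 smallest p-values of each list, genes outside the test with 10 FPKM or more in a library of 1 group and under 1 in both of the other, and the marker genes at 0 or under 1 FPKM throughout. All other genes in the text were chosen after their values were seen, and some genes that the rule takes in are not reported here. The study's cuffdiff calls, its annotation terms and the reads were not used here.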

Additional observations from a re-analysis of the deposited data

Results flagged for a closer look

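Bc1, which encodes a short noncoding RNA of neuronal dendrites, stood at 97548 FPKM in replicate 1 of CCNY-WT, against a listed 0 in all 5 remaining libraries. The gene was outside the test, since it reached an FPKM of 1 in a single library, and its signal in a group other than EGFP is why it stands here. The other CCNY-WT library did not share it. The reverse pattern, at least 10 FPKM in an EGFP library and under 1 in both CCNY-WT libraries, was seen for the microRNA genes Mir23b (0 and 517 in EGFP) and Mir2985 (217 and 0) and for Rpl37a (24.5 and 0.00734), each in a single EGFP library.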

How the results depend on the processing

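Ccny kept its direction under all 17 alternatives, with its adjusted limma p under 0.05 in all but 3, each of which left 1 group with a single library that was assumed to vary like the others. Its log2 difference was 1.33 to 1.36 when 1 library was left out. Without EGFP replicate 2, CCNY-WT replicate 1 or CCNY-WT replicate 2 its adjusted p rose to 0.0518, 0.147 and 0.155. The count of genes higher past the adjusted threshold was 3 with log2(FPKM + 1) and 3 with a mean FPKM of at least 5, in both cases Ccny, Kctd13 and Nit1, and 0 to 1 with 1 library left out. Genes higher by 0.3 numbered 309 with log2(FPKM + 1), 180 with a mean FPKM of at least 5, 6 with a threshold of 1 and 468 to 794 with 1 library left out, and genes lower by 0.3 numbered 247, 113, 6 and 383 to 634. With 1 library left out, 197 to 487 genes were higher and 135 to 348 lower at an unadjusted p under 0.05, and 54.1% to 72.0% had an interval within ± 0.5. The counts of sterol genes, chosen after seeing the data, were 23 to 24 lower and 5 to 15 lower at that p. The causes were not tested.

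Signs changed in genes that were never called, most with differences near 0, and in Cdk18 (0.44), Mcm2 (-0.28) and Rrm2 (-0.20), which are weak. Under quantile normalization Cdk16 was -0.0215, Ywhab -0.0111, Ywhag -0.0368 and Ywhaq -0.0192. With 1 library left out the range was -0.0754 to 0.115 for Cdk14, -0.0558 to 0.0648 for Cdk16, -0.0587 to 0.00915 for Cdk17, -0.0789 to 0.952 for Cdk18, -0.0119 to 0.0855 for Cdk5r1 and -0.0104 to 0.185 for Cdk5r2. It was -0.00894 to 0.0654 for Ywhab, -0.0101 to 0.0556 for Ywhag, -0.0581 to 0.00965 for Ywhah, -0.00488 to 0.0664 for Ywhaq and -0.0243 to 0.0512 for Ywhaz. For Mcm2 it was -0.718 to 0.163 and for Rrm2 -0.470 to 0.0708. Among the genes that the naming rule took in at an unadjusted p under 0.05, the log2 difference moved by over 1.5 times without 1 library for Arpc4, Cacna2d3, Ccna1, Egr1, Ndufs6, Nupr1, Pmaip1, Rpl27a and Wasl. Of the 29 list medians, 17 changed sign or reached 0 under at least 1 alternative, those of endocytosis, immediate early and ATF4 genes under a scaling. The 12 that kept their sign were those of actin, ribosomal, respiratory, proteasome, sterol, glutamate receptor other than AMPA, sodium and calcium channel, postsynaptic, vesicle, Wnt, neuron and interneuron genes. Scalings moved the median of all genes to between -0.0036 and 0.0088.

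Libraries of different groups share replicate numbers only. The deviations of same-numbered libraries correlated at 0.053 for EGFP and CCNY-WT, 0.038 for EGFP and CCNY-shRNA and 0.054 for CCNY-WT and CCNY-shRNA. With the replicate number as a block, Ccny had a log2 difference of 1.35 and an adjusted p of 0.00169, and 1 gene was higher and 0 lower past the threshold. With 2 libraries a group, genes under 5 FPKM had intervals too wide to show differences of the sizes described for stronger genes.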

Other observations

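Of the neuron, interneuron, astrocyte and oligodendrocyte lineage markers, 0 passed the adjusted limma threshold and 0 had an unadjusted p under 0.05 (6.83% of all tested genes). All 12 neuron markers had a 95% interval within ± 0.5. Map2, a dendritic microtubule protein, gave 246 and 242 FPKM with EGFP against 232 and 210 with CCNY-WT, and Elavl3, a neuronal RNA-binding protein, gave 90.8 and 91.5 against 85.4 and 81.9. Of 14 interneuron markers 9 were higher and 5 lower, with a median log2 difference of 0.02. Gad1, which makes GABA, gave 189 and 188 against 204 and 198 (log2 difference 0.09, SE 0.0499), and Calb2 (calretinin) gave 33.4 and 32 against 36.1 and 35.3.

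Of the 9 astrocyte markers 6 were higher and 3 lower. Aqp4, the water channel of astrocyte endfeet, gave 16.8 and 17 against 18.5 and 18.7, whereas Sox9, a glial transcription factor, gave 2.16 and 2.77 against 1.67 and 2.08. Of the oligodendrocyte lineage, Olig2 gave 1.63 and 1.68 against 2.31 and 2.18 (log2 difference 0.44), libraries that did not overlap. Lum, a proteoglycan of connective tissue, gave 50.1 and 56 against 56.1 and 59.7. Of the 3 tested vascular and meningeal markers, Mgp was the 1 at an unadjusted p under 0.05, with 4.07 and 5.11 against 8.15 and 8.21.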
